A study of Homo sapiens with 6 samples.

Results

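PARP4, PARP6, PARP8, PARP9, PARP10, PARP12, PARP14, PARP16 and DTX3L are 9 of the 16229 genes in a count table from colorectal cancer cells given a bile acid. They were chosen by symbol, and PARP1 and PARP2 were left out. The study compared 3 RNA-seq libraries labelled GCA with 3 labelled CON, all from wild-type MC38 cells kept for 24 h with or without GCA. GCA was taken to mean glycocholic acid, the bile acid named in the series' title, and its dose is not stated in the labels. The GCA samples are titled fa, a name the labels leave unexplained, so each GCA value rests on the treatment label. MC38 is known as a mouse colon cancer line, whereas the labels give human as organism and hg38 as build, and one protocol speaks of heart tissue. Whether the 3 samples of a group were grown separately is not stated. The p-values therefore reflect the spread among these libraries alone, and that spread may be technical.

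ADP-ribosylation is the transfer of ADP-ribose from NAD to a protein. PARP1, PARP2 and the tankyrases build chains of it, while most other PARPs add a single unit, a mark that macrodomains read and hydrolases remove. PARP9, PARP10, PARP12, PARP14 and DTX3L are known as interferon-stimulated genes. DTX3L is a ubiquitin ligase of the Deltex family, not a PARP. It forms a complex with PARP9. PARP4, PARP6, PARP8 and PARP16 are not commonly counted among interferon-stimulated genes, so the common name of interferon-linked PARPs covers only some of these genes.

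PARP9 and DTX3L stand head to head on chromosome 3, and the bases between their starts are shown because both genes rose and share them. RefSeq's promoter table (GRCh38.p14) held windows for 7 of the 9 members and none for PARP4 or PARP10, which were not searched. Each window spans 250 bases before a gene's start and 50 after it. Capitals in the stretches below mark GAAA repeated after a gap of any 2 bases, read on either strand, the core of the interferon-stimulated response element. Each stretch is written 5′ to 3′ on its gene's strand and ends just after the start. The DTX3L stretch is chr3:122564188-122564349 on the plus strand, that of PARP14 is chr3:122680689-122680850 on the plus strand, and that of PARP12 is chr7:140062940-140063101 on the minus strand.
DTX3L: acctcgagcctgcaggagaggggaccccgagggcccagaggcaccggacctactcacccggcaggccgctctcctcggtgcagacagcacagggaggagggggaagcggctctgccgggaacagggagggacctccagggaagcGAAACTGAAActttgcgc
PARP14: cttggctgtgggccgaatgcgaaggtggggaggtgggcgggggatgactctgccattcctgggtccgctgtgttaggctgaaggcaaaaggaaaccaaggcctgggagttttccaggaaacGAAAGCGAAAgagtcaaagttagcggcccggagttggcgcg
PARP12: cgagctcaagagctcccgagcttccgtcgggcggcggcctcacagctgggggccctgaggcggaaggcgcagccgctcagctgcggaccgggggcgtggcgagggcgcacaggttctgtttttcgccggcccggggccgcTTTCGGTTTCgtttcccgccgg

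A single match, at chr3:122564332-122564341, lay in both the DTX3L window and a PARP9 window. These 2 windows overlap by 137 bases on opposite strands, with starts at 122564338 for DTX3L and 122564300 for PARP9. PARP9 has a second listed start at 122564784, whose window held no match. PARP14 had its match at chr3:122680810-122680819 and PARP12 at chr7:140062952-140062961. The windows of PARP6, PARP8 and PARP16 did not contain these letters. Across all 35116 windows of the table, 3.57% held the GAAA repeat. The other interferon motif searched was TTC and GAA with any 3 bases between them, the core of the gamma-activated site, on both strands. It was present once among the members, in PARP14 at chr3:122680799-122680807, beside the first motif without overlapping it, and in 7.66% of all windows. A match describes letters only and does not show binding.

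PARP10, PARP9, DTX3L and PARP12 rose in GCA, and no member fell. All 9 members passed the filter on low counts. In edgeR's quasi-likelihood test 4 of 9 rose at an adjusted p under 0.05, against 18.3% of 12604 tested genes that rose and 36.4% that changed in either direction. Likewise 0 fell at an unadjusted p under 0.05, in DESeq2 and in limma-voom. The GCA and CON libraries did not overlap for these 4 genes, as for 24.1% of tested genes that were higher in GCA and 48.5% in either direction. The median log2 fold change was 0.47 over the members and -0.04 over all tested genes. The 4 that rose were among the 5 known as interferon-stimulated, and 0 of the other 4 changed. That division was made with the values known and was not tested. In bulk RNA, a change in the number of expressing cells and a change in RNA per cell cannot be told apart.

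**Figure D1:**
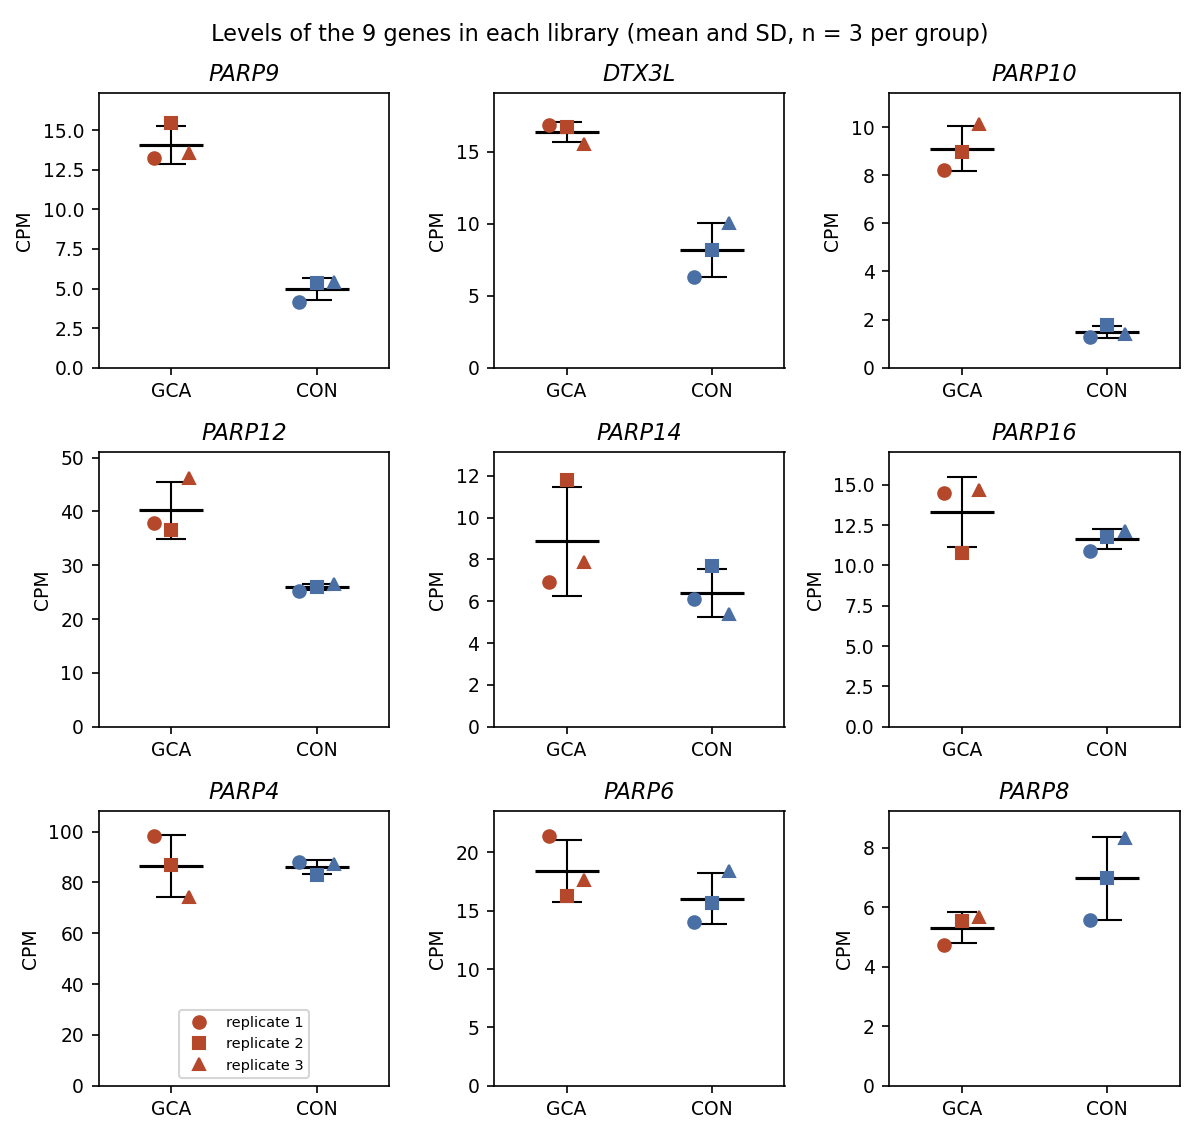
Levels of the 9 genes in each library, in CPM on TMM-scaled library sizes, GCA left and CON right. Symbols are replicates, bars the mean and SD of 3 libraries. All GCA libraries lie above all CON libraries for PARP9, DTX3L, PARP10 and PARP12, and the groups overlap for the other 5 genes.

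PARP10 had the largest fold change of the 9. It encodes a mono-ADP-ribosyltransferase known to bind MYC (chromosome 8, 143977158 to 144012764, GRCh38). Its counts were 166, 176 and 193 in GCA 1 to 3, against 23, 34 and 27 in CON 1 to 3. The lowest GCA library held several times the count of the highest CON library. On the CPM scale, which divides each count by the TMM-scaled library size, its mean level was 9.10 ± 0.94 CPM in GCA and 1.48 ± 0.26 CPM in CON (SD, n = 3 each). The change was 6.10-fold, or 2.61 ± 0.22 on the log2 scale (SE, edgeR adjusted p = 6.01e-06), and ranked 57 from the highest of all tested genes. GRINA, a membrane protein gene, overlaps the PARP10 gene by 3358 bases on the opposite strand in GENCODE. The overlap is one of whole genes, and its part within exons was not measured. No source used here states the strand setting of the counting, so reads of the overlap could have been credited to either gene or to neither. GRINA averaged 450 CPM in GCA and 343 CPM in CON, a log2 fold change of 0.39 (edgeR adjusted p = 0.0305) that stood at -0.10 with a correction for GC content and length. Leaving out any library but CON 1 also took the GRINA call away. PARP10 stood at 2.11 with that correction (adjusted p = 0.000115).

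PARP9, whose product reads ADP-ribose through macrodomains and pairs with DTX3L, rose next. It measured 13.2, 15.5 and 13.6 CPM in GCA 1 to 3, against 4.18, 5.32 and 5.39 CPM in CON 1 to 3. Every GCA library was more than double the highest CON library. The change was 2.84-fold, or 1.5 ± 0.17 on the log2 scale (edgeR adjusted p = 7.22e-05). DTX3L measured 16.9, 16.7 and 15.6 CPM in GCA 1 to 3, against 6.29, 8.19 and 10.05 CPM in CON 1 to 3. Its GCA libraries lay close together and its CON libraries spread more widely, without overlap. DTX3L rose 2.0-fold, or 1.0 ± 0.18 on the log2 scale (edgeR adjusted p = 0.00121). As whole genes PARP9 and DTX3L overlap by 340 bases at their starts on opposite strands, so their counts may not be fully separate measurements.

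Relative to DTX3L, PARP9 counts were higher in each GCA library than in any CON library. PARP9 counts per DTX3L count were 0.785, 0.927 and 0.872 in GCA 1 to 3, and 0.664, 0.650 and 0.536 in CON 1 to 3. The groups did not overlap, and the log2 ratio was higher by 0.49 in GCA. A two-sided exact permutation test over the 6 libraries gave p = 0.1, the smallest that 3 against 3 allows, so the design cannot pass 0.05 for this ratio. With a library left out the difference ran from 0.39 to 0.55. Its direction could not reverse there, because the groups did not overlap.

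PARP12, a zinc finger PARP known for antiviral activity, changed less and was more abundant. It measured 37.9, 36.5 and 46.1 CPM in GCA 1 to 3, against 25.3, 26.0 and 26.6 CPM in CON 1 to 3. GCA 3 stood above the other GCA libraries, and the CON libraries were within a narrow range. PARP12 rose 1.55-fold, or 0.63 ± 0.13 on the log2 scale (edgeR adjusted p = 0.00253). Over 19 alternative settings the PARP12 value lay between 0.49 and 0.70, always called higher.

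PARP14, a large macrodomain PARP known as a STAT6 cofactor, was not called although it is a neighbour of PARP9 and DTX3L. It measured 6.90, 11.8 and 7.86 CPM in GCA 1 to 3, against 6.13, 7.67 and 5.39 CPM in CON 1 to 3. GCA 2 stood apart, and GCA 1 lay below CON 2. The log2 fold change was 0.47 ± 0.23 (edgeR adjusted p = 0.121), and 0.21 without GCA 2 (adjusted p = 0.515). PARP14 passed after the GC and length correction, at 0.79 (edgeR adjusted p = 0.0185). It also passed without replicate 1 of both groups, at 0.62 (adjusted p = 0.0145). Counts of PARP14 per PARP9 count were 0.521, 0.763 and 0.579 in GCA 1 to 3, against 1.47, 1.44 and 1.0 in CON 1 to 3. This ratio was chosen after the values were seen. It was lower in every GCA library (two-sided exact permutation p = 0.1, the smallest possible). PARP14 per DTX3L count overlapped between the groups (exact permutation p = 0.2).

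**Figure D2:**
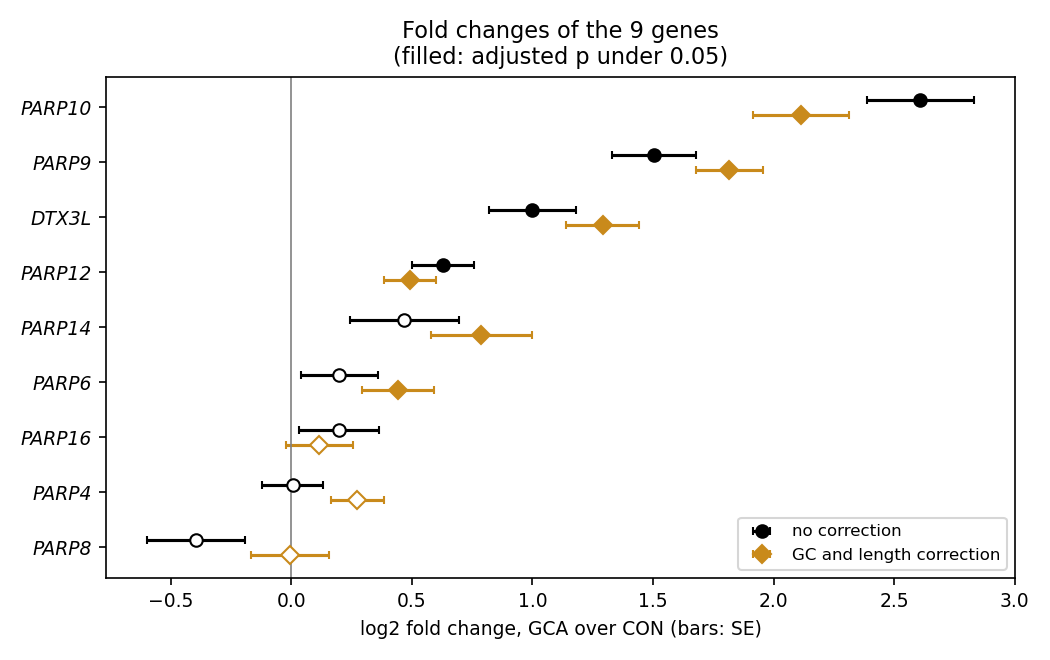
Log2 fold change of each gene, GCA over CON, with its SE, without correction (circles) and with the GC and length correction (diamonds). Filled symbols passed at an adjusted p under 0.05. PARP10, PARP9, DTX3L and PARP12 passed both ways, and PARP14 and PARP6 passed with the correction but not without it.

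The other 4 genes gave no call. PARP16, an enzyme anchored in the endoplasmic reticulum and linked to the unfolded protein response, measured 14.5, 10.8 and 14.7 CPM in GCA 1 to 3, against 10.9, 11.8 and 12.1 CPM in CON 1 to 3. GCA 2 was below every CON library while the other GCA libraries were above them, and the log2 fold change was 0.20 ± 0.16 (edgeR adjusted p = 0.364). PARP6, a mono-ADP-ribosyltransferase studied in neurons, measured 21.4, 16.2 and 17.7 CPM in GCA 1 to 3, against 14.04, 15.7 and 18.4 CPM in CON 1 to 3. The PARP6 groups overlapped, with a log2 fold change of 0.20 ± 0.16 (edgeR adjusted p = 0.344). PARP6 passed narrowly after that correction, at 0.44 (adjusted p = 0.0467).

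PARP4, the PARP of cytoplasmic vault particles, measured 98.5, 87.0 and 74.1 CPM in GCA 1 to 3, against 88.2, 83.0 and 87.2 CPM in CON 1 to 3. The CON values lay inside the range of the GCA values, and the log2 fold change was 0.01 ± 0.13 (edgeR adjusted p = 0.975). Its sign changed between settings. With the replicate number as a block together with the GC and length correction, PARP4 passed at 0.27 (adjusted p = 0.0341). PARP8, a little-studied relative of PARP6, measured 4.71, 5.55 and 5.66 CPM in GCA 1 to 3, against 5.57, 6.99 and 8.34 CPM in CON 1 to 3. Only GCA 3 reached the lowest CON library, and the log2 fold change was -0.39 ± 0.20 (edgeR adjusted p = 0.143). It fell by 0.53 without CON 1 (adjusted p = 0.0235), and stood at -0.01 with the GC and length correction.

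GC content differed widely among the members, at 66.9% in the longest PARP10 transcript and 35.6% in that of PARP8. Across all tested genes, fold changes correlated with GC content (r = 0.48 over genes, which are not independent replicates). The member median was 0.49 with the correction and 0.47 without it. With it 6 of 9 members passed, all higher, beside 13.3% of tested genes that rose. With the block added 7 passed, beside 15.8% of tested genes that rose. The part of GC content in the single fold changes was not tested.

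Per gene length, the 9 genes covered a wide range of levels, and their order changed between the groups. FPKM (counts scaled to the authors' gene length and to the library total) placed PARP4 first in both groups, at 14.8 ± 2.1 in GCA and 15.2 ± 0.76 in CON (SD, n = 3 each). PARP12 came second in both, at 9.63 ± 1.21 FPKM in GCA and 6.43 ± 0.56 FPKM in CON, and in CON its range overlapped that of PARP6. PARP6, PARP16 and DTX3L followed in both groups. DTX3L and PARP10 overlapped in GCA, at 2.79 ± 0.13 and 2.58 ± 0.26 FPKM. In CON, PARP10 was last of the 9, at 0.437 ± 0.099 FPKM, and the ranges of PARP8, PARP14, PARP9 and PARP10 each overlapped the next. In GCA PARP8 was last, at 0.597 ± 0.059 FPKM, below PARP9 at 1.70 ± 0.16 FPKM and PARP14 at 1.06 ± 0.32 FPKM. The authors' length was 8167 bases for PARP9 and 5768 bases for DTX3L, so more DTX3L than PARP9 was measured per kilobase in both groups.

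**Figure D3:**
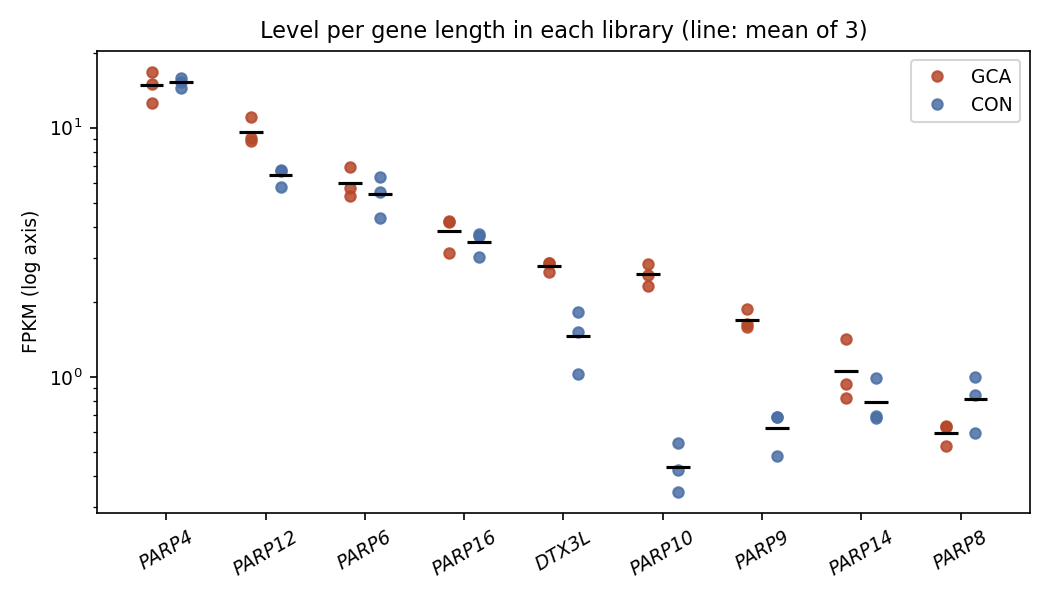
FPKM of each gene in each library on a log axis, GCA left of CON within each gene, ordered by the GCA mean (black lines are means of 3). PARP10 stands at 2.58 FPKM in GCA and 0.437 FPKM in CON, and PARP4 is highest in both groups.

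Few genes were tested near the PARP9 start on chromosome 3, and of these PARP9 and DTX3L rose. Within 250 kb lay 11 protein-coding genes, among them PARP9, DTX3L, PARP14 and PARP15. PARP15 had 0 counts in each library except CON 2, which had 2, so it was below the filter. The 7 other genes were tested and 0 rose, beside 18.3% of all tested genes. This count is small and was not tested against that share. It was also 0 at an unadjusted p under 0.05 and in DESeq2 and limma-voom. KPNA1, a nuclear import receptor gene and the nearest neighbour on the far side of PARP9, had a log2 fold change of -0.24 (edgeR adjusted p = 0.237). MIX23, a mitochondrial protein gene, fell by 0.66 (adjusted p = 0.0483), a narrow call that 9 of 19 alternatives lost, among them the GC and length correction. Without CON 1 the MIX23 value was -0.24 (adjusted p = 0.171). The 7 values ran from -0.66 to -0.01, and those of FAM162A, WDR5B, KPNA1 and SLC49A4 changed sign with that correction.

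**Figure D4:**
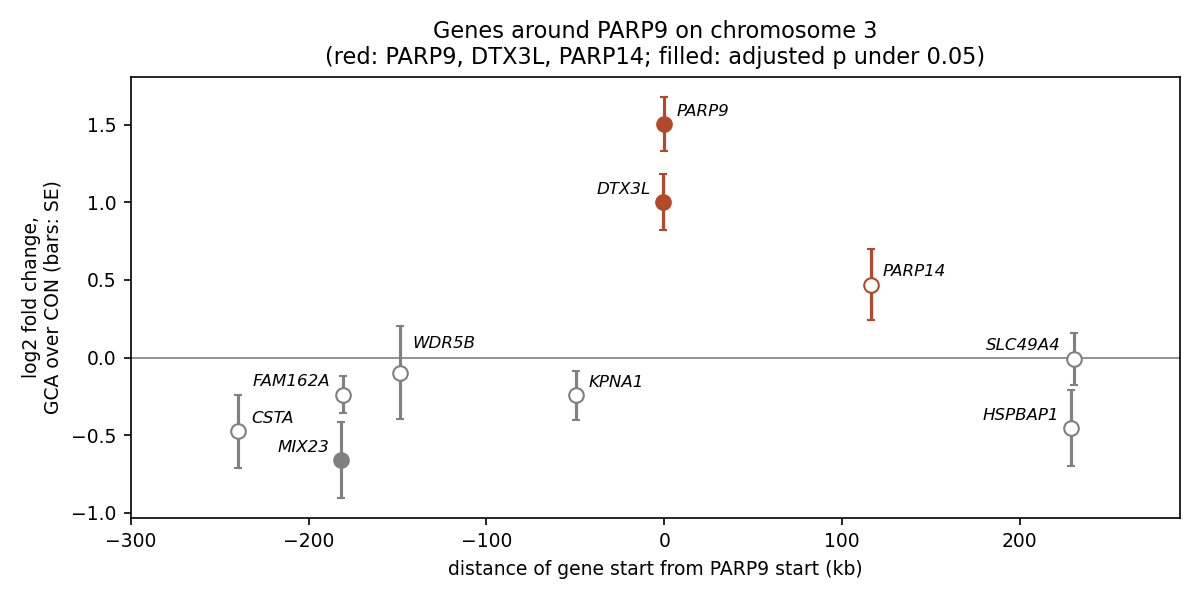
Log2 fold change with SE, GCA over CON, against the distance of each gene's start from the PARP9 start in kb, for the 10 tested genes. PARP9 (1.5) and DTX3L (1.0) stand highest, PARP14 is at 0.47, and the other 7 lie at or below -0.01.

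The profiles over the 6 libraries that lay closest to PARP9, DTX3L and PARP14 were those of genes outside the fixed lists. Those lists hold few of the 12604 tested genes, so this was likely from the start. Likeness was the root mean square difference of log2 CPM, each gene centred on its own mean. The 5 closest to PARP9 were DYSF, SEPTIN4, SEC14L5, P4HA3 and CCDC92, at 0.0588 to 0.102. The 5 closest to DTX3L were MAP3K8, RPS6KA2, SLC22A18, ARHGEF37 and PTAFR, at 0.0672 to 0.094. The 5 closest to PARP14 were ANK3, VSNL1, FOXA1, ZFP14 and KCNK13, at 0.113 to 0.156. PARP9 and DTX3L differed from each other by 0.266 on this scale. That value is not comparable with the smallest differences picked from all tested genes.

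The rest of the PARP family gave 3 calls, all lower in GCA. Of 9 further genes 8 were tested, and 0 rose and 3 fell. Over all tested genes 18.3% rose and 18.1% fell. The counts are small and were not tested against these shares. The median of the 8 tested genes was -0.34 on the log2 scale. Also 0 rose at an unadjusted p under 0.05, in DESeq2 and in limma-voom. PARP2, which makes ADP-ribose chains at DNA breaks, had counts of 224, 162 and 179 in GCA 1 to 3, against 468, 532 and 517 in CON 1 to 3. The PARP2 groups lay far apart, and it fell by 1.49 ± 0.15 on the log2 scale (edgeR adjusted p = 2.57e-05). TIPARP, the mono-ADP-ribosyltransferase PARP7 and a target of the aryl hydrocarbon receptor, fell by 0.72 ± 0.18 (adjusted p = 0.00898). The tankyrase gene TNKS fell by 0.58 ± 0.13 (adjusted p = 0.0052). After correction for GC content and length TIPARP stood at -0.42 (adjusted p = 0.0792) and TNKS at -0.25 (adjusted p = 0.0811), and TIPARP also lost its call without GCA 1 (adjusted p = 0.051). PARP1 had -0.34 (adjusted p = 0.0648), and passed once the replicate block was added (adjusted p = 0.0229). ZC3HAV1, the antiviral RNA-binding PARP13 and itself known as interferon-stimulated, had -0.05 ± 0.19 (adjusted p = 0.865), and 0.24 with the correction.

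Genes for the removal of ADP-ribose and the supply of NAD were called in both directions, where 18.3% of all tested genes rose and 18.1% fell. Of 10 tested eraser genes 1 rose and 1 fell, with a median of 0.09. MACROD1, a macrodomain hydrolase, had a log2 fold change of 0.61 (edgeR adjusted p = 0.00587) whose corrected value was 0.11 (adjusted p = 0.551). NUDT5, an ADP-ribose pyrophosphatase, fell by 0.32 (adjusted p = 0.0371), and its corrected value was -0.04 (adjusted p = 0.749). NUDT5 also lost its call when any library except CON 1 was left out. PARG, which cuts ADP-ribose chains, had -0.52 (adjusted p = 0.0508), and passed with the replicate block (adjusted p = 0.0251). Of 4 macrodomain readers 1 fell, the chromatin remodeller gene CHD1L by 0.42 (adjusted p = 0.016). CHD1L lost its call with the correction (adjusted p = 0.0927) and without GCA 2, GCA 3 or CON 3. Of 10 tested genes of NAD synthesis and breakdown 3 rose and 1 fell. SARM1, an NAD-consuming enzyme, rose by 1.43 ± 0.32 (adjusted p = 0.00416), NMRK1, a nicotinamide riboside kinase, by 0.86 and NAPRT, the nicotinic acid salvage enzyme, by 0.51. NAMPT, the rate-limiting enzyme of nicotinamide salvage, fell by 0.53 (adjusted p = 0.00838). With the correction NAPRT stood at -0.04 and NAMPT at -0.18, both without a call. NAPRT also lost its call without GCA 3 or CON 2, and NMRK1 lost its call without GCA 3 (adjusted p = 0.0627). Of the other Deltex ligases DTX4 rose by 0.69 ± 0.13 (adjusted p = 0.00159), DTX2 did not pass, and DTX1 and DTX3 were below the filter.

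Several interferon-response lists held higher shares of rising genes than all tested genes did, of which 18.3% rose and 18.1% fell. They were fixed with earlier results of these data known, and were not tested as sets. Of 8 interferon transcription factor genes 6 rose and 0 fell, and their median was 0.64 on the log2 scale. IRF9, the DNA-binding subunit of the factor that acts at interferon-stimulated response elements, measured 67.3 ± 12.9 CPM in GCA and 16.1 ± 4.8 CPM in CON (SD, n = 3 each), and rose by 2.06 ± 0.20 on the log2 scale (edgeR adjusted p = 2.23e-05). IRF7 rose by 2.0 ± 0.15 and IRF1 by 0.82 ± 0.12. No member of that list fell at an unadjusted p under 0.05, in DESeq2 or in limma-voom, and 1 fell with the GC and length correction.

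Of 8 interferon feedback genes 5 rose, with a median of 0.80, where 18.3% of all tested genes rose and their median was -0.04. The JAK inhibitor gene SOCS1 rose by 2.30 ± 0.19 on the log2 scale and UBA7, the activating enzyme for ISG15, by 1.95 ± 0.44. The ubiquitin-like ISG15 rose by 1.25 ± 0.18 and its conjugating enzyme UBE2L6 by 1.04 ± 0.12 on that scale. Across these genes the edgeR adjusted p ran from 6.01e-06 to 0.00442. UBA7 had only 19, 53 and 42 counts in GCA 1 to 3, against 10, 7 and 11 in CON 1 to 3. It passed the low-count filter only through its GCA libraries. Of 20 reference interferon-stimulated genes 13 were tested and 11 rose, with a median of 2.28 among those tested. IFI44, IFIT3, MX1 and OAS1 passed the low-count filter only through their GCA libraries, which favoured a call of higher. IFI44 had 13, 18 and 16 counts in GCA 1 to 3, against 0, 2 and 4 in CON 1 to 3. The share and the median of this list therefore depend in part on the filter. The 7 below the filter include IFI44L, MX2, OAS2 and RSAD2. OAS1, IFI27, IFI6 and IFIT1 led this list, with log2 fold changes of 4.12, 4.19, 3.76 and 3.16, each above that of PARP10.

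Of 9 interferon receptor and kinase genes 1 rose and 0 fell, where 18.3% of all tested genes rose and 18.1% fell, and the median was -0.06. It was the interferon lambda receptor gene IFNLR1, with 0.50 ± 0.14 on the log2 scale (edgeR adjusted p = 0.0123), whose call was lost without GCA 2 (adjusted p = 0.0507) or GCA 3 (adjusted p = 0.0742), and in both limma tests on log2 FPKM. In the same list 1 was lower at an unadjusted p under 0.05, 0 fell in DESeq2 and in limma-voom, and 1 fell with the GC and length correction. Of 10 interferon ligand genes 3 had a row and none passed the filter. IFNL1 had 4, 1 and 3 counts in GCA 1 to 3, against 0, 0 and 2 in CON 1 to 3. IFNL3 had 5, 0 and 3 counts in GCA 1 to 3, against 0, 0 and 2 in CON 1 to 3, and it shares sequence with its near-identical relatives, so reads could be split between them. IFNE had 3, 4 and 0 counts in GCA 1 to 3 and 0 in each CON library. A floor of 3 counts equals 0.146 to 0.166 CPM, so these levels are too low to compare. The other 7 ligand genes were not analysed here.

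**Figure D5:**
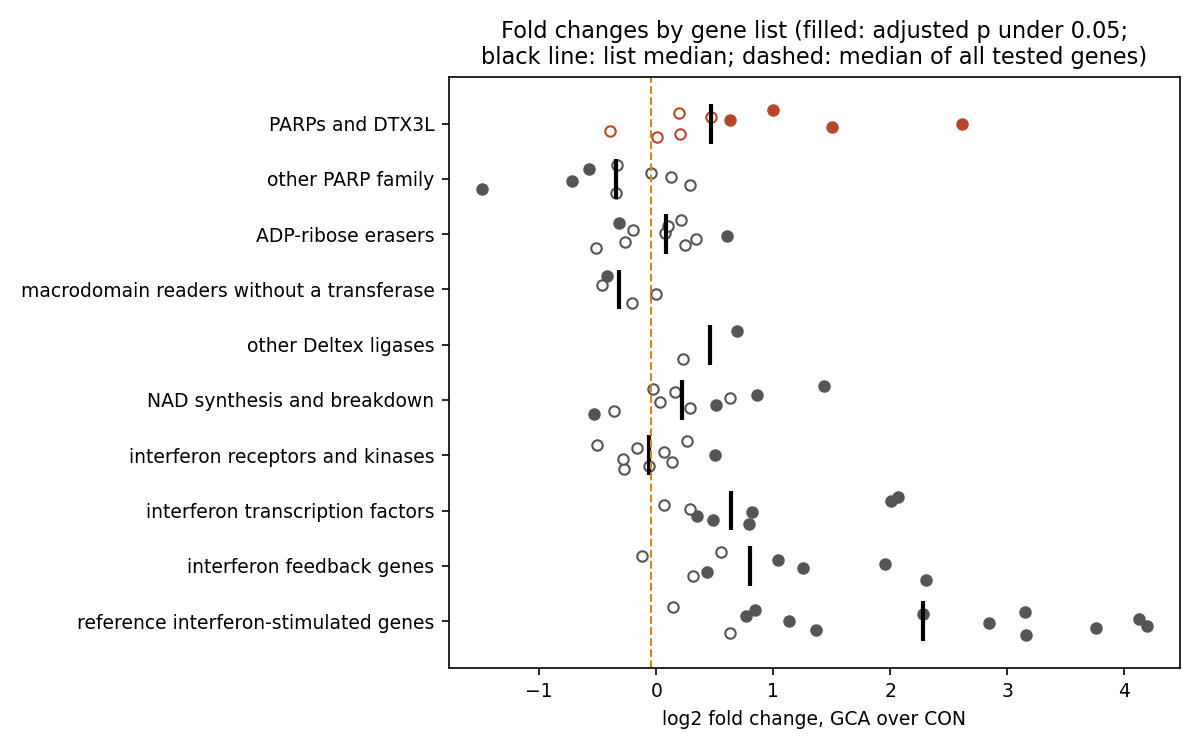
Log2 fold change, GCA over CON, of each tested gene by list, with the 9 genes in red at the top. Filled circles passed at an adjusted p under 0.05, black lines are list medians and the dashed line is the median of all tested genes. The member median is 0.47, that of the other PARPs -0.34 and that of the reference interferon-stimulated genes 2.28. The reference list includes genes that passed the low-count filter only through their GCA libraries.

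The libraries held 18057453 to 20531612 counts each. Among all tested genes 18.3% rose. Markers of colorectal epithelium summed to 8740 to 10481 CPM in GCA and 6078 to 7891 CPM in CON, and 4 of 8 tested markers rose. KRT8 and KRT18 made up most of this sum, averaging 6994 and 2356 CPM in GCA. EPCAM, CDX2, VIL1 and LGALS4 were not called, LGALS4 with a log2 fold change of -0.32. CDX1 and CEACAM5 were below the filter. Leukocyte markers summed to 34.3 to 43.5 CPM in GCA and 28.7 to 33.3 CPM in CON, with 2 of 4 tested genes higher, and the pan-leukocyte gene PTPRC was below the filter. Cardiomyocyte markers summed to 37.3 to 42.8 CPM in GCA and 23.6 to 27.1 CPM in CON, nearly all of it TNNI3, with MYH6, MYH7 and TNNT2 below the filter. Hepatocyte markers summed to 27.9 to 33.4 CPM in GCA and 17.5 to 20.1 CPM in CON, fibroblast markers to 14.6 to 16.8 CPM in GCA and 11.4 to 12.5 CPM in CON, and endothelial markers to 2.08 to 2.65 CPM in GCA and 0.78 to 1.41 CPM in CON. Each of these sums was higher in every GCA library than in any CON library, and 1 tested gene of each list rose (SERPINA1, COL1A1 and VWF). The hepatocyte markers ALB and APOA1 and the endothelial marker PECAM1 were below the filter. The part of these markers in the rise of PARP9, DTX3L, PARP10 and PARP12 was not tested.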

How the data were processed

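RNA-seq measured 3 GCA and 3 CON libraries. The authors deposited raw counts per gene symbol and FPKM values. For 16229 of 16229 genes each FPKM value equals count per library total and gene length (relative tolerance 1e-09), so the FPKM adds no measurement. Tools listed in the submitters' processing notes, without roles, are HTSeq 0.11.2, HISAT2 2.2.1.0 and fastp 0.20.1, with hg38 as build. No source used here states the annotation, strand setting or filters.

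Columns were matched to samples by title and groups taken from the treatment label. Counts were tested with edgeR 4.0.16 in R 4.3.3 (TMM, filterByExpr with minimum count 10 and minimum total 15, glmQLFit, glmQLFTest), with Benjamini-Hochberg adjustment over 12604 tested genes and a threshold of 0.05. The SE is the fold change divided by the square root of F. Coordinates are from RefSeq GRCh38.p14, overlaps and GC content from GENCODE. On simulated data the test recovered 82% of genes changed by 1 and 21% of those changed by 0.5 on the log2 scale. The simulation changed far fewer genes than the 4584 called here, so its adjusted threshold was harder to pass. These shares therefore do not give the power of this comparison. Alternatives were other normalizations and filters, DESeq2 1.42.0, limma 3.58.1, the replicate block, a GC and length correction and leaving out libraries.

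Members and lists were chosen with earlier results of these data known. Genes named were the members, at most 4 per list with the lowest p among called genes, IRF9, ZC3HAV1, TIPARP, PARP1, PARP2 and PARG, genes within 250 kb of PARP9, and the 5 profiles closest to each of PARP9, DTX3L and PARP14. One further gene that the rule names is not reported here. GRINA and the ratios with PARP14 were added with values seen. Deviations of same-numbered libraries from their group means correlated across genes at 0.206, 0.137 and 0.104, against -0.172 to 0.0954 for other numbers. All same-numbered libraries passed a limit of 0.1, replicate 3 narrowly. The replicate number was therefore used as a block in alternative settings. The main fit and the main ratio tests used the group only and ignored it. Replicates 2 and 3 were more alike than either was to replicate 1 (chi-square per gene 4.87 to 6.49, against 20.2 to 45.8), and no pair agreed within sampling noise. The number of counts sets the precision, and floors cover counting error only.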

Additional observations from a re-analysis of the deposited data

How the results depend on the processing

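PARP9, PARP10, PARP12 and DTX3L kept their direction and call in all 19 alternatives. Their log2 fold changes ran from 0.74 to 1.82, 1.32 to 2.77, 0.49 to 0.70 and 0.64 to 1.30, the lowest for all but PARP12 on log2(FPKM + 1), a scale that understates low genes. PARP16 was called in none.

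The count of members called, 4 with all libraries, was 7 with the replicate block and the GC and length correction, all higher. It was 4 to 5 when each library was left out, with 0 to 1 lower (PARP8 without CON 1) and 4 higher in each case. Without replicate 1 of both groups 1 member was lower. Over all genes 4584 were called, 2307 higher and 2277 lower. Leaving out each library gave 2621 (without GCA 3) to 6707 (without CON 1), with 3029 without CON 2, of which 1493 to 3225 were higher and 1128 to 3482 lower. Without replicate 1 of both groups 7419 were called, 3710 higher and 3709 lower. The causes were not tested. The PARP9 to DTX3L log2 ratio ran from 0.39 to 0.55 with a library left out. With the replicate block it was 0.49, with p = 0.25 in a two-sided exact sign-flip permutation test, the smallest that 3 pairs allow. Fewer samples also change how many genes can pass.

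The replicate block alone called 5163 genes and the same 4 members. Among the 44 named genes tested it changed 2 calls, PARP1 and PARG.

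Signs reversed as follows, on the log2 scale. PARP4 stood at -0.0169 with upper quartile scaling, -0.0394 with library size only, -0.00498 without filter, -0.00342 with limma-voom, -0.0447 on log2(FPKM + 1), -0.0479 on log2(FPKM + 0.1), -0.00271 with the block and -0.0557 without replicate 1 of both groups. PARP4 also ran from -0.0789 to 0.106 with a library left out. With the GC and length correction, NAPRT stood at -0.0389, ZC3HAV1 at 0.236, FAM162A at 0.0562, WDR5B at 0.235, KPNA1 at 0.0831, SLC49A4 at 0.168 and GRINA at -0.101. With the block added, PARP8 stood at 0.000446, NAPRT at -0.041, ZC3HAV1 at 0.206, FAM162A at 0.058, WDR5B at 0.254, KPNA1 at 0.102, SLC49A4 at 0.168 and GRINA at -0.101. SLC49A4 stood at 0.00826 with DESeq2's size factors, 0.0284 with the stricter filter (50 counts in 3 libraries) and 0.000711 in DESeq2. With a library left out ZC3HAV1 ran from -0.305 to 0.133, WDR5B from -0.318 to 0.0726 and SLC49A4 from -0.0842 to 0.103.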
